A study of Homo sapiens with 42 samples.

Results

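The endogenous locus of DPPA2 and DPPA4 was defined as both genes with 200 kb on each side, a window of 443.8 kb on chromosome 3 (hg38, chr3:109093788-109537546). Both genes lie on the minus strand in tandem. DPPA2 (ENSG00000163530) spans chr3:109293788-109316517 with 9 exons, DPPA4 (ENSG00000121570) spans chr3:109326144-109337546 with 7 exons, and 9626 bp separate them. The window was chosen by position, and the 2 genes are 2 of 20007 protein-coding genes. Across the 38 ChIP-seq libraries it held 219 broad islands of 2300693 in all. Of these 219 islands, 152 touched no exon of either gene. An island is a stretch where ChIP reads exceeded input reads, and it was kept when its FDR was below 0.05 and its log2 fold over input exceeded 1. The other genes of the window are MORC1, MORC1-AS1, C3orf85, ENSG00000261364, LINC00488, RNU6-1236P, BRD7P7, a Metazoa_SRP RNA, ENSG00000289358, ENSG00000241257, C12orf29P2, H3P12, LINC01205 and PPIAP15, of which MORC1 and C3orf85 code for proteins.

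The question put to the window was which chromatin it carries where the genes are active, and what differs there when doxycycline induces an exogenous copy of both proteins. H661 is a large cell lung carcinoma line that expresses both genes from this locus and was used parental and untreated. H1299 is a lung adenocarcinoma line with stable inducible transgenes, in which a tet-response element drives FLAG-tagged DPPA2 and V5-tagged DPPA4 cDNA. H1299 cells received 2 µg/mL doxycycline (DOX) or water (CTRL) for 7 days, and both conditions carry the transgenes. No doxycycline-treated H1299 line without the transgenes was included. Between DOX and CTRL, effects of the drug itself can therefore not be told apart from those of the induced proteins. H661 had 2 libraries each for H3K27ac, H3K4me1, H3K36me3, H3K36me2, H2AK119ub, H3K9me3, DPPA2 and DPPA4, and 1 each for KDM2A and SUZ12. Per the study's methods, the DPPA2, DPPA4, KDM2A and SUZ12 libraries came from double-crosslinked cells and the histone mark libraries from single-crosslinked cells. H661 had an input of each kind. H1299 had 2 libraries each for H3K27ac, H3K4me1, H3K36me3, H2AK119ub and H3K9me3 in each condition. A cDNA contains exons but no introns, promoters or flanking DNA. Reads over exons in H1299 can therefore not be told apart between the transgenes and the locus, and only islands outside the exons are read as the locus. H661 and H1299 also differ in every other property of 2 cell lines, which cannot be told apart from the activity of the locus. The labels do not say that replicates were separate cultures, so their spread may be technical.

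DPPA2 and DPPA4 are small SAP-domain proteins that bind DNA as a pair in the early embryo, in pluripotent cells and in germ cells. In mouse embryonic stem cells they keep developmental promoters poised for later expression. Most adult tissues silence both genes, with DNA methylation at their promoters. Acetylation of histone H3 lysine 27 (H3K27ac) marks active promoters and enhancers, and H3K4me1 marks enhancers and promoter flanks. H3K36me3 covers the bodies of transcribed genes, and H3K36me2 covers broad intergenic stretches. H2AK119ub is laid down by Polycomb repressive complex 1, and H3K9me3 marks heterochromatin.

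The promoters of both genes are printed because the H3K27ac islands of H661 lie on them. They are RefSeq promoter sequences (GRCh38.p14), from 250 bases before to 50 bases after the transcription start site (TSS), 5′ to 3′ on the minus strand, with every CpG in capitals. Both were identical to the hg38 sequence used here.
DPPA2 promoter, chr3:109316468-109316767: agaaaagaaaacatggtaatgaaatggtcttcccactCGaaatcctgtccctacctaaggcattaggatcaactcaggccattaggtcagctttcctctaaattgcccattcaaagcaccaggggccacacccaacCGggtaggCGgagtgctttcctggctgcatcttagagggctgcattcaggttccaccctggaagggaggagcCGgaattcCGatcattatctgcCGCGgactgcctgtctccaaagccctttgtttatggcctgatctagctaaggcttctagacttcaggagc
DPPA4 promoter, chr3:109337497-109337796: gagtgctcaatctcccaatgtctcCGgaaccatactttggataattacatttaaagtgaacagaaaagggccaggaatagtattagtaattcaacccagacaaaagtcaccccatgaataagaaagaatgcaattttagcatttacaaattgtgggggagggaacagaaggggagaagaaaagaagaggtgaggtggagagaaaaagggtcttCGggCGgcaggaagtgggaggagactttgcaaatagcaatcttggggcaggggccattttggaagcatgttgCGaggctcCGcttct
The DPPA2 promoter held 7 CpG dinucleotides at 51.3% GC and the DPPA4 promoter 5 at 45.3% GC. The median over 35116 promoters of the same length was 14 CpG and 58.7% GC, and 63.2% and 70.4% of promoters had at least as many CpG as the DPPA2 and DPPA4 promoters. Neither is CpG-rich. No run of 20 bases in either promoter had a second exact copy on chromosome 3.

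Over the 5 marks measured in both lines, the H661 libraries held 89 islands outside the exons, against 4 in H1299 DOX and 0 in H1299 CTRL. Islands outside the exons were present in 8 of 10 H661 libraries, 4 of 10 DOX libraries and 0 of 10 CTRL libraries. Their summed length was 69000 bp in H661, 2200 bp in DOX and 0 bp in CTRL. Library size differs between the lines, with 44537 to 127865 islands kept per H661 library of these marks, 12301 to 103384 per DOX library and 14489 to 98190 per CTRL library. The lists do not give the depth of a library, and kept islands held 1.32 to 6.65 M reads in H661, 0.149 to 3.66 M in DOX and 0.138 to 2.77 M in CTRL.

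**Figure D1:**
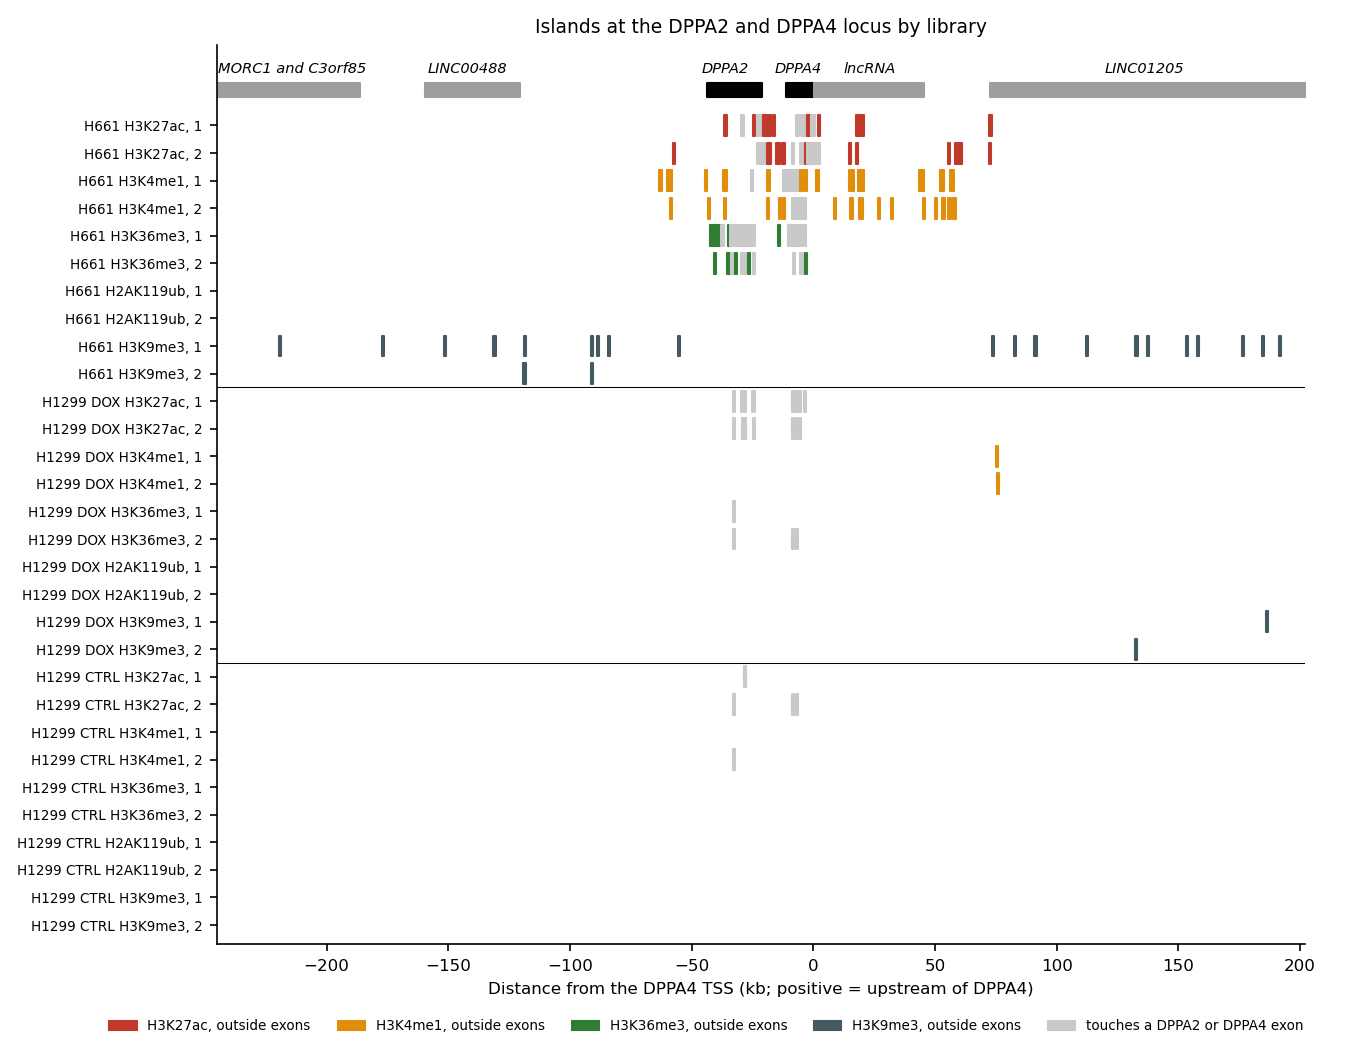
Position of every kept island of the 5 shared marks, by library, with distance from the DPPA4 TSS in kb on the x axis and the H661 libraries above H1299 DOX and H1299 CTRL. Coloured blocks touch no exon of DPPA2 or DPPA4 and grey blocks touch one, very short islands are drawn at a fixed minimum width, and the coloured blocks number 89 in H661, 4 in DOX and 0 in CTRL.

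H3K27ac covered both promoters in H661. Over the DPPA2 promoter, replicate 1 had 2 islands with 67 and 61 reads, at 4.31-fold and 6.54-fold over input, and replicate 2 had 1 island of 3300 bp with 344 reads at 8.66-fold. At the DPPA4 promoter, replicate 1 had 1 island of 1900 bp across the TSS with 72 reads at 6.95-fold and 1 of 1100 bp inside the gene with 36 reads at 4.96-fold. Another of 1000 bp, which starts 1.755 kb upstream and so outside the promoter window of 1500 bp, had 26 reads at 12.5-fold over 2 input reads and joins the consensus island. Replicate 2 had a single island of 5200 bp with 441 reads at 7.63-fold. This DPPA4 promoter island was longer than 98.7% of the islands of its library, and the DPPA2 promoter island of replicate 2 was longer than 96.1%. In replicate 1 the islands across the DPPA2 and DPPA4 TSS were longer than 91.0% and 89.8% of the islands of that library. The joined islands of both replicates (consensus islands) spanned chr3:109314501-109318200 at DPPA2 and chr3:109334901-109340100 at DPPA4. They touch exon 1 of their gene and so stay out of the counts outside the exons. Neither was overlapped by an H3K27ac island of any H1299 DOX or CTRL library.

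Outside the exons, H3K27ac had 11 islands over 10700 bp in H661 replicate 1 and 13 over 10600 bp in replicate 2, with median folds of 3.86 and 5.12. Of these 24 islands, 7 lay between the genes, 11 upstream of DPPA4, 3 in introns, 2 within 1500 bp of a TSS and 1 downstream of DPPA2. Between the genes, islands covered 39.3% of the gap in replicate 1 and 55.9% in replicate 2. The islands reached 13.49 kb beyond the end of DPPA2 and 72.36 kb upstream of DPPA4, and none lay farther out in either library. Consensus islands outside the exons numbered 3. The first, chr3:109318401-109320200, starts 1.88 kb upstream of the DPPA2 TSS and had 38 reads in replicate 1 and 61 in replicate 2, with highest folds of 3.67 and 10.5. The second, chr3:109355101-109355900, lies 17.55 kb upstream of the DPPA4 TSS within the lncRNA gene ENSG00000289358, which starts 194 bp upstream of DPPA4 on the other strand, with 12 and 32 reads at 5.79-fold and 5.91-fold. The third, chr3:109409801-109410600, covers the TSS of the lncRNA LINC01205 at 72.25 kb, with 15 and 33 reads at 2.07-fold and 2.61-fold, and 284 bp of it lie on the histone H3 pseudogene H3P12, where reads of related genes may map.

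**Figure D2:**
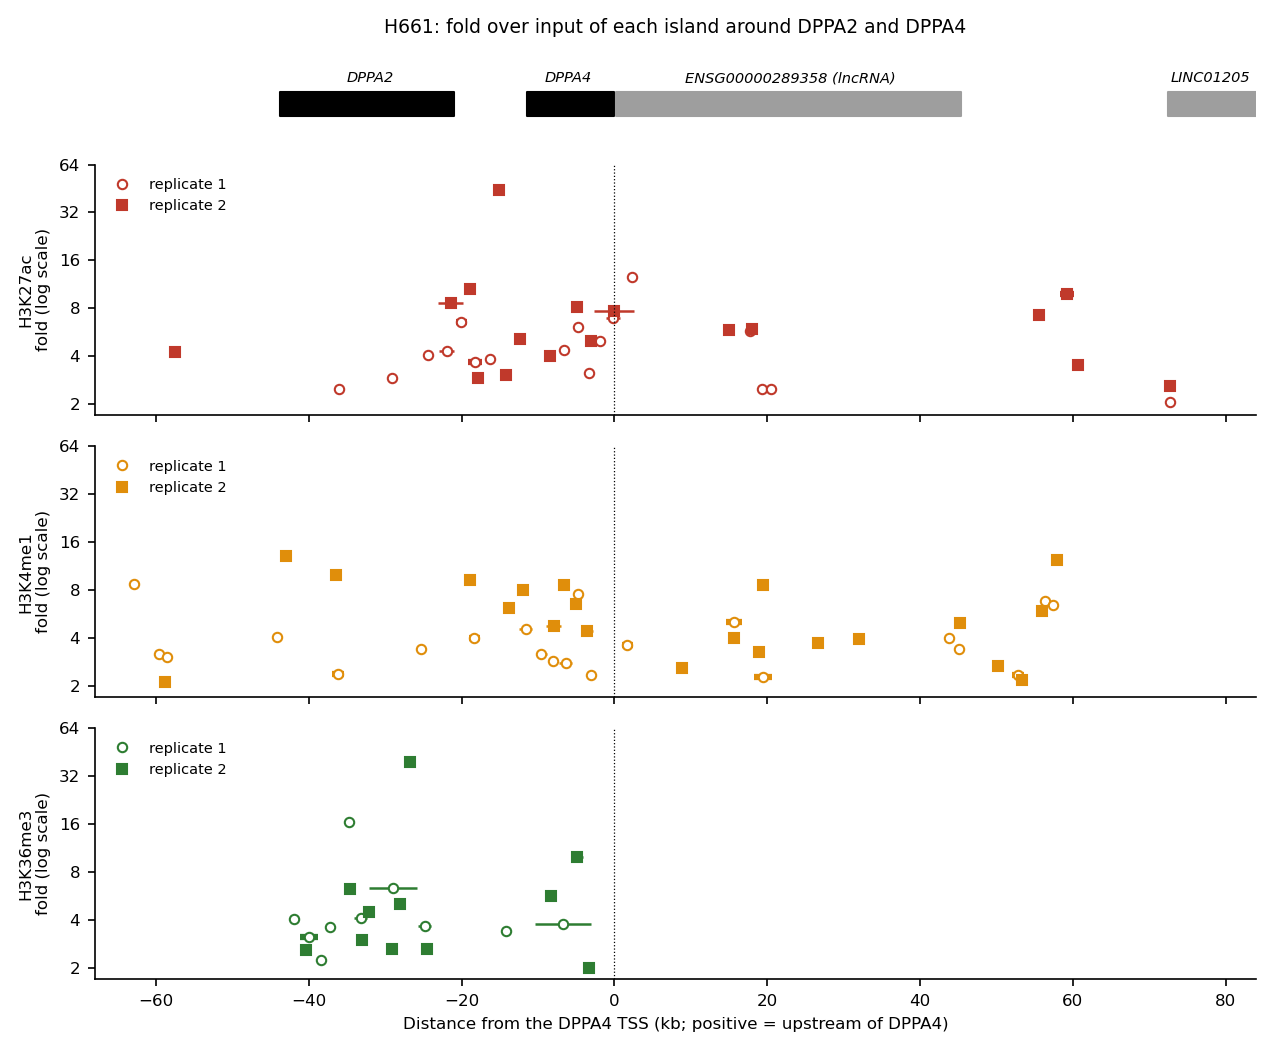
Fold over input (log axis) of each H661 island of H3K27ac, H3K4me1 and H3K36me3 against distance from the DPPA4 TSS in kb, with open circles for replicate 1, filled squares for replicate 2 and horizontal bars for island length. Thick bars touch no exon, H3K27ac islands recur in both libraries at 17.55 and 72.25 kb, H3K4me1 lies on both sides, and H3K36me3 lies within the genes except for 1 island between them.

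The most heavily covered distal H3K27ac island appeared in only 1 library. At chr3:109395901-109397700, 58.35 kb upstream of DPPA4, replicate 2 had 106 reads at 9.78-fold, with more reads than 87.0% of the islands of that library. Replicate 1 had no island there. The processed pseudogene C12orf29P2 lies under it, so the mapping of its reads is uncertain. H3K4me1 lay beside it in both libraries, with islands of 17 reads at 57.05 kb in replicate 1 and 20 reads at 57.55 kb in replicate 2.

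H3K4me1 had 16 islands outside the exons over 18200 bp in H661 replicate 1 and 17 over 10400 bp in replicate 2. It was the mark with the most consensus islands there, at 7. Between the genes, chr3:109318401-109319900 had 42 and 15 reads, and in DPPA2 an intronic island at chr3:109300601-109302200 had 28 and 16. On the DPPA2 side the farthest consensus island was chr3:109278501-109279200, with 16 and 17 reads. Upstream of DPPA4 the consensus islands lay at 14.65 kb with 53 and 26 reads, 44.76 kb with 18 and 16, 52.05 kb with 34 and 21, and 55.35 kb with 18 and 38. The island at 14.65 kb had folds of 5.03 and 4.03 and ends before the H3K27ac island at 17.55 kb, although an H3K27ac island of replicate 2 alone, with 21 reads, lies on it. H3K4me1 also covered 62.8% of the DPPA4 gene in replicate 1 and 43.0% in replicate 2. No H3K4me1 island lay across the DPPA4 TSS in either library. On the scale of distance from that TSS, where negative values lie inside the gene, the nearest islands were at 0.955 and -2.45 kb in replicate 1 and at -2.85 kb in replicate 2.

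Distal consensus islands, over 1500 bp from the TSS of any protein-coding gene, were classed by whether both enhancer marks met. Of the 7 distal H3K4me1 consensus islands outside the exons in H661, 1 overlapped an H3K27ac consensus island and 6 did not, where 33.9% of 25069 distal H3K4me1 consensus islands of the genome did. The 1 with both marks is the island between the genes. The 2 H3K27ac consensus islands without an H3K4me1 consensus island are those at 17.55 and 72.25 kb. An H3K4me1 island of replicate 1 alone, with 60 reads, overlaps the end of the island at 17.55 kb. The island at 72.25 kb covers the TSS of the lncRNA LINC01205, and the definition of distal leaves such starts out. In H1299 DOX there was 1 H3K4me1 island with no H3K27ac and in H1299 CTRL none of any class. The count depended on the replicates, with 4 islands carrying both marks without replicate 1 and 5 without replicate 2.

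Repeats lie under several of these islands. Over the 13 consensus islands of the 5 shared marks outside the exons, the share of runs of 50 bases with another exact copy on chromosome 3 lay between 0% and 28.4%, highest at the H3K4me1 island at 55.35 kb. How the repeats affected the mapping of reads was not tested.

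H3K36me3 marked both gene bodies in H661. Its islands covered 68.6% of the DPPA2 gene in replicate 1 and 29.9% in replicate 2, and 64.0% and 21.0% of the DPPA4 gene. The longest, 7300 bp with 220 reads at 3.76-fold, ran through DPPA4 in replicate 1, where a 6300 bp island with 236 reads at 6.34-fold lay in DPPA2. Outside the exons each library had 5 islands, over 5900 and 3500 bp, of which 8 of 10 were in introns of DPPA2, 1 in an intron of DPPA4 and 1 between the genes. No H3K36me3 island lay beyond either gene in the 200 kb on each side. The only consensus island outside the exons, chr3:109296401-109298700 in DPPA2, had 50 reads in replicate 1 and 22 in replicate 2. H3K36me2 was absent from both gene bodies in both libraries. It had 5 islands in replicate 1 and 11 in replicate 2, of which 1 lay between the genes and 15 in the flanks, and no consensus island.

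H2AK119ub had no kept island in the window in either H661 library, nor in any DOX or CTRL library. H3K9me3 had 20 islands in replicate 1 and 2 in replicate 2, none of them in or between the genes. On the DPPA4 side the nearest was 73.25 kb away, beyond the last H3K27ac island, and on the DPPA2 side the nearest was 11.49 kb from the gene, where H3K27ac and H3K4me1 islands reached 13.49 and 18.69 kb. The 20 islands of replicate 1 rested on 7 to 21 reads with a median of 9, and 6 of them had 0 input reads, so their folds of up to 61.2 are rough. Only 2 positions carried H3K9me3 in both libraries, chr3:109218301-109219400 with 10 and 22 reads and chr3:109246301-109247000 with 10 and 19 reads. In replicate 1 an island of 10 reads also reached the promoter of MORC1, a gene of the germline, but replicate 2 had none.

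Covered length outside the exons did not overlap between H661 and H1299 for 4 of the 5 marks. H3K27ac covered 10700 and 10600 bp in H661, against 0 and 0 bp in DOX and 0 and 0 bp in CTRL. H3K4me1 covered 18200 and 10400 bp in H661, against 700 and 500 bp in DOX and 0 and 0 bp in CTRL. H3K36me3 covered 5900 and 3500 bp in H661 and 0 bp in every DOX and CTRL library. H3K9me3 covered 7900 and 1800 bp in H661, against 400 and 600 bp in DOX and 0 and 0 bp in CTRL. Every H661 library of these 4 marks was above every H1299 library in covered length. The share of other genes at which covered length separates in this way is not given. Nothing particular to the locus is therefore read from this separation. As a share of the kept islands of a library, H3K9me3 islands of the locus outside the exons made up 0.0156% and 0.00223% in H661, against 0.00813% and 0.00418% in DOX and 0% in both CTRL libraries. On this scale the H661 and DOX libraries overlapped for H3K9me3, and they did not for the other 3 marks. A two-sided exact permutation test of 2 libraries against 2 cannot give a p below 0.33, so no contrast can pass 0.05. For the 4 marks without overlap in covered length, 0.33 is the value of each contrast of H661 with DOX or CTRL. H2AK119ub covered 0 bp in every library. The contrasts with DOX and with CTRL share the H661 libraries.

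**Figure D3:**
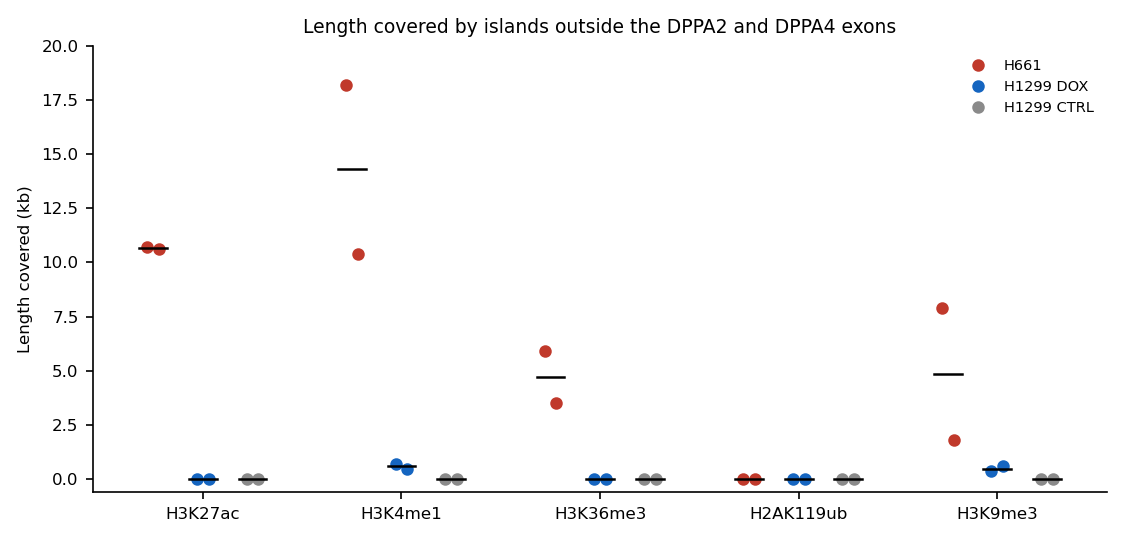
Length in kb covered by islands that touch no exon, for each of the 5 shared marks, with 1 point per library in the order H661, H1299 DOX, H1299 CTRL and a bar at the mean of 2. The H661 points lie at 1800 bp or higher for every mark except H2AK119ub, where all are at 0, and DOX is above 0 for H3K4me1 and H3K9me3.

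None of the 13 H661 consensus islands outside the exons was overlapped by an H1299 island of the same mark, in DOX or in CTRL. Genome-wide this held for a share that differed by mark. All 3 H3K27ac islands lacked an H1299 island, where 48.4% of 31698 consensus islands lacked one in DOX and 60.9% in CTRL. All 7 H3K4me1 islands did, where 56.3% of 31263 lacked one in DOX and 59.8% in CTRL. The 1 H3K36me3 island did, where 26.9% of 26024 lacked one in DOX and 32.5% in CTRL. Both H3K9me3 islands did, where 92.2% of 34864 lacked one in DOX and 89.4% in CTRL, so this count is near the background.

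The depth of H1299 limits this reading at the weaker islands. Each replicate's highest H661 fold within a consensus island was taken, and the lower of the 2 was applied over its whole length. At this fold the 13 islands would give 4.78 to 35.5 reads in DOX and 4.70 to 29.0 in CTRL. The smallest kept island of a library had 6 to 8 reads. A limit of 8 reads, the largest of these sizes, would be exceeded in both libraries by 10 of 13 islands in DOX and by 8 of 13 in CTRL. It takes no account of island length, so exceeding it does not show that an island would be called. The H3K27ac island at 17.55 kb would give 24.9 and 13.4 reads in DOX and 17.2 and 13.1 in CTRL. The LINC01205 island would give only 8.90 and 4.78 reads in DOX and 6.15 and 4.70 in CTRL, so whether H1299 lacks it was not detectable at this depth. The expected reads at the DPPA2 promoter island are 130 and 70.0 in DOX and 90.3 and 68.7 in CTRL, and at the DPPA4 promoter island at least 114 in DOX and at least 113 in CTRL. Input at the locus in H661 was 4.35 to 5.98 reads per kb over the islands of 10 histone libraries, against 5.16 to 6.41 over all islands of the 12 histone libraries. Over all islands of a library, input in H1299 was 0.965 to 2.55 reads per kb in CTRL and 1.69 to 3.09 in DOX. Folds in H1299 therefore rest on fewer input reads. The copy number of the locus in H1299 was not measured.

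All 4 islands outside the exons in H1299 were in DOX libraries and upstream of DPPA4, within LINC01205. H3K4me1 had 15 reads at chr3:109412601-109413300 in replicate 1 and 14 reads at chr3:109413101-109413600 in replicate 2, each with 0 input reads. They joined into 1 consensus island 75.06 kb from the DPPA4 TSS, just past the last active island of H661, and no H661 H3K4me1 island overlapped it. It had no CTRL island, as had 16.8% of 31042 DOX H3K4me1 consensus islands. The H3K9me3 islands of DOX had 8 reads each, at 185.9 kb in replicate 1 and 132.2 kb in replicate 2, and did not overlap each other. The island at 132.2 kb overlapped an H661 replicate 1 H3K9me3 island of 9 reads. Over the promoters of DPPA2 and DPPA4, DOX had no island of any mark.

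Inside the exons the lines differed in shape. The 15 H3K27ac islands of DOX that touched an exon had a median length of 300 bp and lay on exon bases for 70.8% of their length, while the 10 of H661 had a median length of 1150 bp and lay on exon bases for 14.8%. The 4 of CTRL had a median of 200 bp and 89.0%. The DOX islands touched exons 3 to 7 of DPPA2 and exons 2 to 6 of DPPA4, with 9 to 65 reads. H3K27ac islands touched exon 1 of both genes in H661, and of neither gene in DOX or CTRL. H3K36me3 had 4 such islands in DOX and 0 in CTRL, against 11 in H661.

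DPPA2 and DPPA4 islands were also present at their own locus in H661. DPPA2 had 24 islands outside the exons in replicate 1 and 4 in replicate 3, and DPPA4 had 1 in replicate 2 and 11 in replicate 3. The counts differed widely between the 2 libraries of each protein. The DPPA4 promoter was the only position with an island of all 4 libraries after the filter on fold and FDR, at chr3:109336001-109338200, with 19 and 16 reads for DPPA2 and 39 and 90 reads for DPPA4, at top folds of 2.80, 2.43, 2.05 and 3.43. Of 20007 protein-coding promoters, 53.3% had an island in all 4 libraries, so this is common. The DPPA2 promoter had kept islands in 3 of the 4. With islands as deposited, 7 of 24 joined regions held all 4 libraries, among them the DPPA2 promoter, with 59 and 134 reads for DPPA2 and 85 and 168 reads for DPPA4. The consensus islands of DPPA2 outside the exons were chr3:109319801-109320400 between the genes, with 11 and 19 reads at 8.11-fold and 8.67-fold, and chr3:109354501-109355300, with 9 and 28 reads at 4.98-fold and 2.32-fold. Both overlap H3K27ac islands of H661. DPPA4 had no consensus island outside the exons. Joined over the 4 libraries, the kept islands made 29 regions, of which 18 also held H3K27ac, where 47.5% of 105960 such regions genome-wide did. Of 12 regions with at least 2 libraries 9 held it, where 67.5% of 45454 did, and all 6 regions with at least 3 libraries held it, where 78.7% of 28334 did. Nothing particular to the locus is read from these counts.

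**Figure D4:**
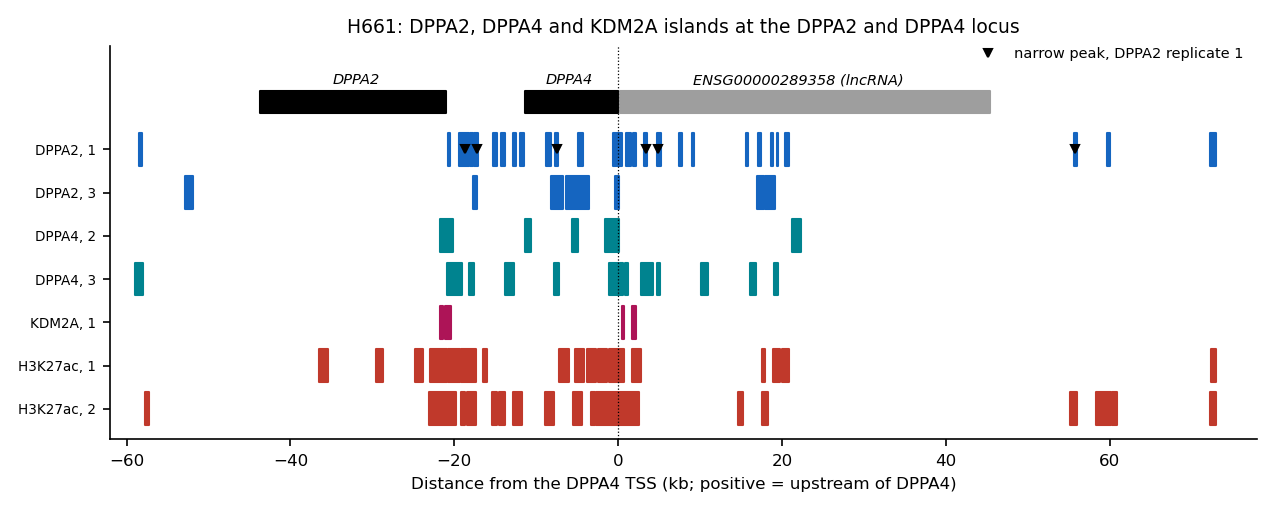
Islands of DPPA2, DPPA4, KDM2A and H3K27ac in H661, with 1 line per library named by target and replicate number, against distance from the DPPA4 TSS in kb. The only position with kept islands of all 4 DPPA2 and DPPA4 libraries is the DPPA4 promoter, and the triangles mark 6 of the 7 narrow peaks of DPPA2 replicate 1, since the seventh lies far outside the range drawn.

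Narrow peaks gave less. DPPA2 replicate 1 had 7 in the window, at 4.02-fold to 6.32-fold, of which 6 touched no exon, while DPPA2 replicate 3 and both DPPA4 libraries had 0. The strongest, 6.32-fold at chr3:109124039-109124481, lies in the gene C3orf85. Of the others, 2 lay between the genes at 4.86-fold and 4.57-fold, 1 on an exon of DPPA4, 2 at 3.25 and 4.82 kb upstream of DPPA4 and 1 at 55.66 kb, within the H3K4me1 consensus island at 55.35 kb. No narrow peak was shared by the DPPA2 and DPPA4 libraries within 200 kb of either gene, where 68.8% of 20007 protein-coding genes had a shared consensus peak within that distance. This share is over all of these genes, and gene density was not matched. The list of DPPA2 replicate 1 held 69810 kept peaks, and the other DPPA2 and DPPA4 lists 26349 to 30497. KDM2A, a demethylase that binds unmethylated CpG DNA, had 4 broad islands, 2 at the DPPA2 promoter with 9 and 19 reads and 2 at 0.455 and 1.755 kb upstream of DPPA4 with 8 and 10 reads. It had no narrow peak there. SUZ12, a subunit of Polycomb repressive complex 2, had neither. KDM2A and SUZ12 have 1 library each, and their result has no replicate check.

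Both promoters had H3K27ac in 2 of 2 H661 libraries and in 0 of 2 DOX and 0 of 2 CTRL libraries. Among 20007 protein-coding promoters, 12.1% had it in both H661 and neither CTRL library. Of 30 genes chosen as genes of the germline and of pluripotent cells, 5 did, namely LIN28A, SOX2, POU5F1, SALL4 and TFAP2C. Of these, SOX2 and POU5F1 also had promoter H3K27ac in 1 of 2 DOX libraries. Nothing particular to the list is read from this count. In all, 7 of the 30 had promoter H3K27ac in both H661 libraries, 3 in both DOX libraries and 1 in both CTRL libraries, where 11628 of all 20007 promoters had it in both H661, 10261 in both DOX and 7660 in both CTRL libraries. Without H661 replicate 1, the 5 became 12. LIN28B and SOHLH2 had it in both H661 and both DOX libraries and in 1 CTRL library. MORC1 had none in any library, nor did C3orf85, the fourth protein-coding gene of the window. Of the cell type markers, KRT8, EPCAM and NKX2-1 of 8 lung and epithelial genes were called in both H661 and neither CTRL library. EPCAM and NKX2-1 were also called in 1 of 2 DOX libraries. From the same list, KRT18 was called in all libraries and KRT7 in 1 of 2 H661, 2 of 2 DOX and 0 of 2 CTRL libraries. SFTPB was called in 1 H661 library only, and SFTPC and CDH1 in none. Of 3 mesenchymal genes, VIM and ZEB1 were called in all libraries and FN1 in 0 of 2 H661, 2 of 2 DOX and 1 of 2 CTRL libraries. Among the genes of other cells, PECAM1 was called in H661 only, and PTPRC, CD3E and CD14 had none.

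The reach of the difference was also set beside other genes, in a comparison added after the data were seen. DPPA2 and DPPA4 each had an H661 H3K27ac consensus island within 200 kb and no H1299 H3K27ac island there outside the exons of both genes. This held for 1.85% of 20007 protein-coding genes against DOX and for 3.15% against CTRL. For every other gene only islands on its own exons were left out, gene density was not matched, and the 2 genes share nearly all of their window.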

How the data were processed

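ChIP-seq was deposited for 42 human cell line samples, of which 38 ChIP libraries had 44 lists and 4 were inputs. Per the submitters' processing notes and the study's methods, the authors trimmed single-end reads with Trim Galore 0.6.6, aligned them with BWA 0.7.13 to hg38 (GRCh38.p13), and used Picard 2.6.0, SAMtools 1.9 and deepTools 3.5.0. They called broad islands with EPIC2 for each library and narrow peaks with MACS2 for DPPA2, DPPA4, KDM2A and SUZ12, each against the matched input. The deposited islands carry read counts, FDR and p-value, a score and a log2 fold. The deposited narrow peaks carry a fold (a ratio), a score and −log10 p and q values. Deposited folds were used as filters and levels.

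Lists were read with Python 3.11.15, pandas 2.3.3 and numpy 2.4.6. Islands on the 24 standard chromosomes were kept at a log2 fold above 1 and FDR below 0.05, as in the methods, and of 2840565 regions 0 ran past an hg38 chromosome end. Exons were the union of GENCODE 44 transcripts, and consensus islands overlapped by more than 25% of each replicate's island. The text names both genes, every gene with an exon in the window, every narrow peak there, listed germline and pluripotency genes with promoter H3K27ac in both H661 and neither CTRL library, and consensus islands outside the exons. Other islands and genes were chosen after their values were seen. H1299 background density came from the deposited folds and counts. It could not be recovered for H661, so covered length and fold replace the planned depth-scaled reads. No region outside the exons had islands in all 4 libraries of a contrast, so the planned fit of read counts was not run. The code for interval overlap was tested on simulated data, and the other computed values had no such test. Covered length was compared by exact permutation over libraries. The members and lists were chosen with earlier results of these data known. The mouse spike-in and the blacklist were not used here. Each read count is given without an error estimate, and PCR copies are not independent. Other filters, overlaps, windows, exon sets, promoter widths, single replicates and pairing by replicate number were tried as alternatives. A marker gene and sequence of distal islands are not reported here.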

Additional observations from a re-analysis of the deposited data

How the results depend on the processing

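Of 179 values under alternatives, 126 stayed within 1.5 times the main value and 53 moved. With log2 fold above 2, islands per H661 library outside the exons fell to 7.0 for H3K27ac, 8.0 for H3K4me1, 2.5 for H3K36me3 and 2.0 for H3K36me2, against 12.0, 16.5, 5.0 and 8.0. With islands as deposited, H2AK119ub had 0.5 per library. H661 consensus islands without an H1299 island, alike for DOX and CTRL, numbered 1 for H3K27ac, 2 for H3K4me1 and 1 for H3K9me3 at log2 fold above 2, and 0 for H3K4me1, 0 for H3K36me3 and 1 for H3K9me3 at an overlap of more than 50%, under which the DOX consensus island was also lost (0). H3K4me1 islands with H3K27ac numbered 0 at log2 fold above 2, 2 at an overlap of 1 bp and 0 at more than 50%. H3K4me1 alone gave 2 and 0 at the stricter fold and overlap, and H3K27ac alone 1 at the stricter fold and 1 at 1 bp.

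With each replicate left out in turn, islands per library ranged over 5.0 to 11.0 for H3K36me2 and 2.0 to 20.0 for H3K9me3, and the 4 DOX islands became 2. With 1 H661 or H1299 library left out, islands without an H1299 island ranged over 3 to 13 for H3K27ac, 7 to 17 for H3K4me1, 1 to 5 for H3K36me3, and 2 to 19 (DOX) or 2 to 20 (CTRL) for H3K9me3. Leaving out an H661 library replaces consensus islands by the islands of the other library. DOX consensus islands became 2. Enhancer classes ranged over 4 to 5 with both marks, 10 to 13 for H3K4me1 alone and 4 to 8 for H3K27ac alone, and the germline and pluripotency promoters over 5 to 12. The call at the DPPA2 and DPPA4 promoters did not change under any of its alternatives.

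With a replicate block, chosen after seeing the data, covered length outside the exons was compared between DOX and CTRL within each replicate number. The paired differences, DOX minus CTRL, were 700 and 500 bp for H3K4me1 (mean 600 bp) and 400 and 600 bp for H3K9me3 (mean 500 bp), each with an exact sign-flip p of 0.5, the smallest that 2 pairs allow, and 0 bp for H3K27ac, H3K36me3 and H2AK119ub. The means are those without the block. The planned edgeR and DESeq2 fits were not run, since no region outside the exons had an island in all 4 libraries of a contrast. Depth limits the LINC01205 island and the weaker H3K4me1 islands in H1299, and 2 libraries a group limit every contrast.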
